A study of Caenorhabditis elegans with 12 samples.

Results

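The 9 genes described here encode enzymes that burn fatty acids in the nematode Caenorhabditis elegans and a nuclear receptor that regulates some of them. They are acs-2, cpt-1, cpt-2, hacd-1 and acaa-2 of the mitochondrial route, maoc-1, dhs-28 and daf-22 of the peroxisomal route, and the regulator nhr-49. They were taken by name, with earlier results of these data known. All 9 were found among the 19568 genes of the deposited tables and passed the filter that left 15717 genes tested.

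In beta-oxidation a fatty acid is first joined to coenzyme A and then shortened in repeated rounds of oxidation, hydration, oxidation and cleavage. Mitochondria do this for most dietary and stored fatty acids, which enter with the help of carnitine. Peroxisomes shorten long chains that mitochondria handle poorly, and in this worm they also trim the side chains of ascarosides, the lipids of its pheromones. NHR-49 is an HNF4-related nuclear receptor that plays in worms a part likened to that of mammalian PPAR alpha, and acs-2 is its classic target in fasting.

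Whole worms were harvested at the L4 larval stage after growth on HT115 E. coli, and total RNA was sequenced as stranded paired-end libraries. The 4 genotypes were the double mutant lonp-1(cmh24)_mrps-38(P210L), lonp-1(cmh24), mrps-38(P210L) and wildtype, with 3 biological replicates of each. The product of lonp-1 is the mitochondrial Lon protease, and that of mrps-38 a small-subunit mitoribosomal protein. The labels do not describe the molecular lesion of cmh24, and they name no more than a single strain per genotype. The labels do not say whether the replicates were separate cultures, so p-values measure the spread between these libraries.

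Each library held 22614493 to 22890539 reads in genes. The lonp-1 transcript was present in all genotypes, at 1437 ± 43.7 normalized counts in the double mutant, 1339 ± 5.80 in lonp-1(cmh24), 1613 ± 48.6 in mrps-38(P210L) and 1688 ± 61.9 in wildtype (SD, n = 3 each). mrps-38 itself was not analysed here. Markers of intestine, muscle, hypodermis, neurons and germ line were all detected in every genotype, as whole worms should give, with no marker at 0. Their sums differed widely. The 6 yolk protein genes summed to 533160 to 543626 normalized counts in the double mutant, 144419 to 201760 in lonp-1(cmh24), 166 to 1006 in mrps-38(P210L) and 21134 to 23970 in wildtype. The 8 intestinal markers summed to 164775 to 168429, 98280 to 151880, 212535 to 238359 and 110694 to 159588 in the same order. These differences in maturation and tissue markers accompany every comparison, and their part in the results was not tested. In whole worms, fewer cells of a type and less RNA per cell cannot be told apart.

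Changes are log2 fold changes ± SE from limma on log2 of the authors' normalized count + 1, over groups of n = 3 libraries. A gene is said to rise or fall where the Benjamini-Hochberg adjusted p over all tested genes was under 0.05. The authors' FPKM values hold the same reads scaled to library totals in place of DESeq2 size factors. Moving from size factors to FPKM shifts the median gene by 0.23 in lonp-1(cmh24) against wildtype and by -0.25 in mrps-38(P210L) against wildtype, and by 0.01 in the double mutant against wildtype (log2). TMM factors, the other scaling tried, shift it by -0.11 in the double mutant against wildtype and by -0.15 where the double mutant is set against lonp-1(cmh24). Changes of the members are therefore given with their FPKM value where these scales part in direction or call.

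acs-2 (WBGene00009221; WBcel235, chromosome V, 15567394 to 15569897, plus strand) encodes a mitochondrial acyl-CoA synthetase, which activates fatty acids for oxidation. It had 5730, 5697 and 5593 normalized counts in the double mutant libraries, 7248, 4609 and 5266 in lonp-1(cmh24), 3874, 4000 and 3436 in mrps-38(P210L), and 608, 493 and 557 in wildtype. Every mutant library stood above every wildtype library. The 3 double mutant libraries fell inside the range of the 3 lonp-1(cmh24) libraries, and the mrps-38(P210L) libraries lay between them and wildtype without overlap.

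acs-2 rose 10.3-fold in the double mutant against wildtype (log2 fold change 3.36 ± 0.14, adjusted p = 2.78e-09), 10.2-fold in lonp-1(cmh24) (3.34 ± 0.14, adjusted p = 6.28e-09) and 6.82-fold in mrps-38(P210L) (2.77 ± 0.14, adjusted p = 4.56e-08). The 95% confidence interval of the lonp-1(cmh24) fold ran from 8.20 to 12.6. Ranked by log2 fold change from the largest rise among all tested genes, acs-2 stood at place 348 in the double mutant, 381 for lonp-1(cmh24) and 39 for mrps-38(P210L). By size of change in either direction the places were 440, 405 and 1469. The 3 comparisons share their wildtype libraries. On the per-length FPKM scale, the level of acs-2 was 124 ± 1.84 in the double mutant, 144 ± 33.1 in lonp-1(cmh24), 68.3 ± 4.80 in mrps-38(P210L) and 11.9 ± 1.03 in wildtype (SD, n = 3 each). In wildtype that was the lowest FPKM level of the 9 genes.

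acs-2 was as high with both mutations as with cmh24 alone, within the error of the comparison. The double mutant differed from lonp-1(cmh24) by 0.02 ± 0.14 on the log2 scale (adjusted p = 0.922; 95% confidence interval -0.29 to 0.33), a value that turns to -0.20 on FPKM (adjusted p = 0.211). The spread of acs-2 between the lonp-1(cmh24) libraries, a coefficient of variation of 24.1%, limits how small a difference this comparison can show. Against mrps-38(P210L), acs-2 was higher in the double mutant by 0.59 ± 0.14 (adjusted p = 0.0021) and in lonp-1(cmh24) by 0.57 ± 0.14 (adjusted p = 0.00272).

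nhr-49 (WBGene00003639; chromosome I, 9869651 to 9874680, plus strand, 7 annotated transcripts), the regulator, moved far less than its target. It had 1993, 2027 and 1912 normalized counts in the double mutant, 2021, 1897 and 1853 in lonp-1(cmh24), 2665, 2566 and 2661 in mrps-38(P210L), and 1707, 1583 and 1726 in wildtype. The mrps-38(P210L) libraries were the highest and the wildtype libraries the lowest, with no overlap of either with another genotype. nhr-49 rose by a log2 fold change of 0.24 ± 0.05 in the double mutant (adjusted p = 0.000863), 0.20 ± 0.05 in lonp-1(cmh24) (adjusted p = 0.0037) and 0.65 ± 0.05 in mrps-38(P210L), all against wildtype. Its order therefore differed from that of acs-2: nhr-49 transcript was highest in mrps-38(P210L), the mutant in which acs-2 was lowest, although on FPKM the nhr-49 difference of lonp-1(cmh24) from mrps-38(P210L) turned from -0.45 ± 0.05 to 0.03 (adjusted p = 0.541).

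**Figure D1:**
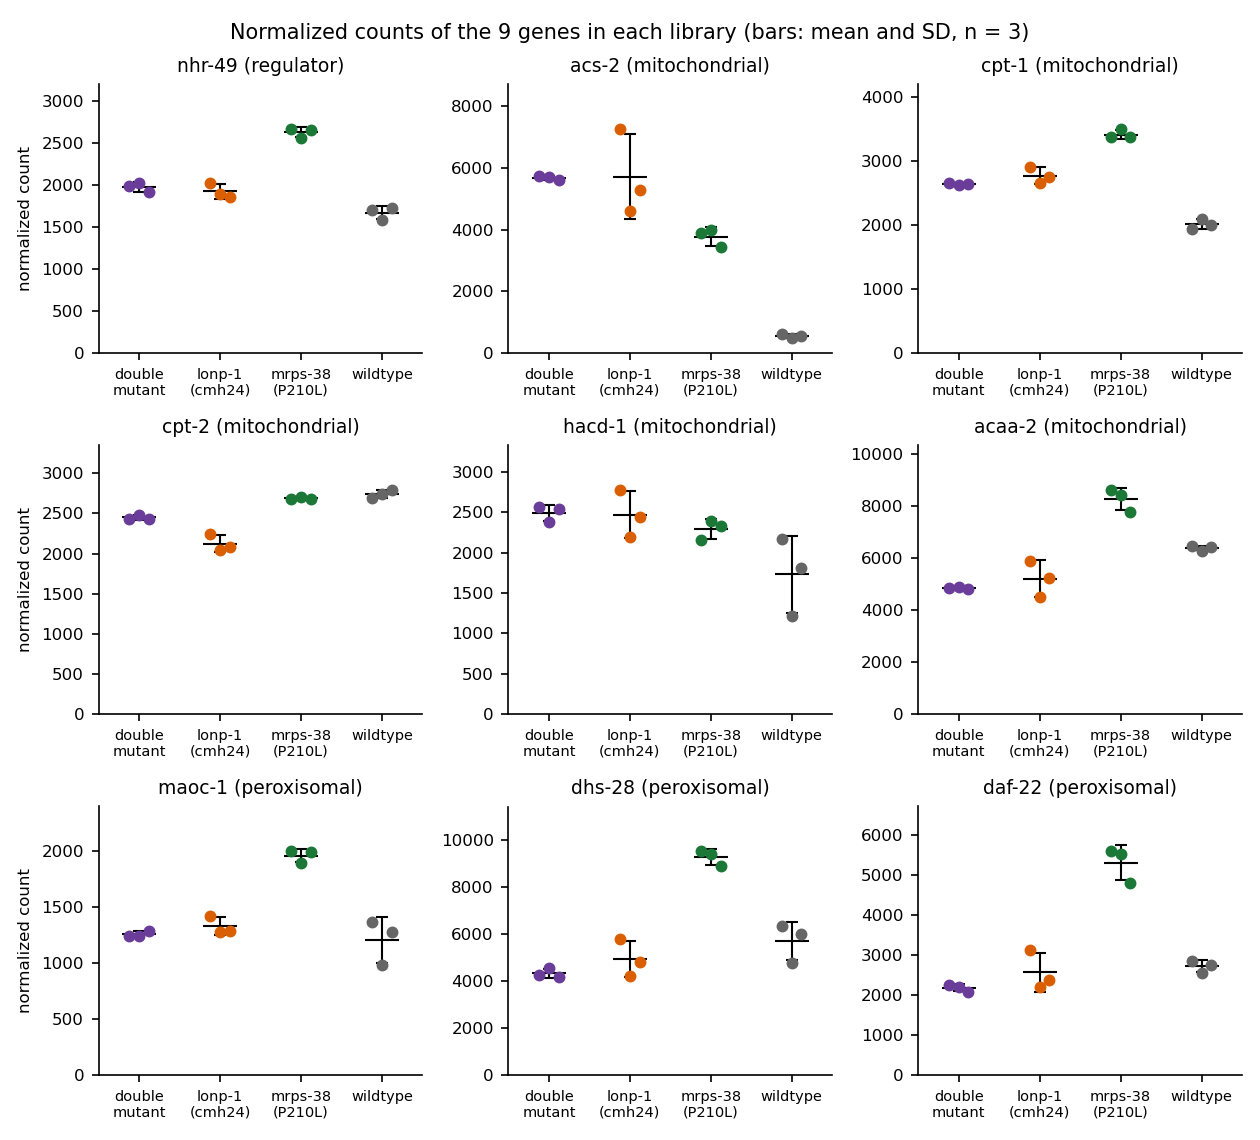
Normalized counts (vertical axes, from 0) of the 9 genes in each library of the double mutant, lonp-1(cmh24), mrps-38(P210L) and wildtype; points are libraries, and bars are the mean and SD of 3. acs-2 lies between 493 and 608 in wildtype and between 3436 and 7248 in the mutants. daf-22, dhs-28 and maoc-1 stand highest in mrps-38(P210L), as do cpt-1, acaa-2 and nhr-49.

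The carnitine shuttle carries activated fatty acids into the mitochondrial matrix. cpt-1 (WBGene00012907; chromosome II, 12788244 to 12796452, minus strand) encodes the carnitine palmitoyltransferase of the outer membrane, the gate of the pathway. It had 2654, 2621 and 2635 normalized counts in the double mutant, 2905, 2655 and 2742 in lonp-1(cmh24), 3362, 3490 and 3369 in mrps-38(P210L), and 1932, 2086 and 2000 in wildtype. All mutant libraries were above all wildtype libraries. cpt-1 rose by 0.40 ± 0.05 in the double mutant (adjusted p = 6.71e-06), by 0.46 ± 0.05 in lonp-1(cmh24) (adjusted p = 2.01e-06) and by 0.76 ± 0.05 in mrps-38(P210L) (adjusted p = 3.87e-08), against wildtype.

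cpt-2 (WBGene00011122; chromosome IV, 11179645 to 11183008, plus strand) encodes the transferase of the inner membrane, which returns the acyl group to coenzyme A. It did not follow cpt-1. Its normalized counts were 2437, 2486 and 2432 in the double mutant, 2240, 2044 and 2086 in lonp-1(cmh24), 2685, 2703 and 2684 in mrps-38(P210L), and 2687, 2745 and 2789 in wildtype. The lonp-1(cmh24) libraries were the lowest and the double mutant came next, without overlap with each other or with the rest.

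cpt-2 fell in lonp-1(cmh24) by 0.37 ± 0.04 (adjusted p = 9.41e-06) and in the double mutant by 0.16 ± 0.04 (adjusted p = 0.00587), against wildtype. In mrps-38(P210L) its change was -0.03 ± 0.04 (adjusted p = 0.623), and -0.28 on FPKM, where it passed (adjusted p = 0.000119). The double mutant had more cpt-2 transcript than lonp-1(cmh24) by 0.21 ± 0.04 (adjusted p = 0.00173), the sole member called in that comparison, but on FPKM this difference was -0.01 (adjusted p = 0.921), and under TMM factors it was 0.06 (adjusted p = 0.299). Within a library the ratio of cpt-1 to cpt-2, which no library scaling can alter, was 0.818 ± 0.0143 in the double mutant, 0.992 ± 0.00738 in lonp-1(cmh24), 0.963 ± 0.0165 in mrps-38(P210L) and 0.557 ± 0.0183 in wildtype (ratio of FPKM; SD, n = 3 each). The ratio of every mutant library was thus above that of every wildtype library, and the double mutant lay between the single mutants and wildtype.

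hacd-1 and acaa-2 act in the last steps of a round. hacd-1 (WBGene00019978; chromosome V, 1460369 to 1461613, plus strand) is annotated as a 3-hydroxyacyl-CoA dehydrogenase. It had 2562, 2381 and 2536 normalized counts in the double mutant, 2773, 2197 and 2440 in lonp-1(cmh24), 2152, 2398 and 2329 in mrps-38(P210L), and 2163, 1221 and 1813 in wildtype. The wildtype libraries were the most scattered, with a coefficient of variation of 27.5%, and their highest library overlapped mrps-38(P210L) but neither genotype with cmh24.

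hacd-1 rose by 0.56 ± 0.17 in the double mutant (adjusted p = 0.013), 0.54 ± 0.17 in lonp-1(cmh24) (adjusted p = 0.0182) and 0.44 ± 0.17 in mrps-38(P210L) (adjusted p = 0.0432), against wildtype. The last of these was 0.19 on FPKM and did not pass (adjusted p = 0.318), and it passed in 1 of 12 fits that each left out a library. Much of the size came from wildtype replicate 2, the lowest library: without it the changes were 0.33 in the double mutant (adjusted p = 0.00942), 0.31 in lonp-1(cmh24) (adjusted p = 0.0153) and 0.21 in mrps-38(P210L) (adjusted p = 0.0795). Without lonp-1(cmh24) replicate 1, the change in lonp-1(cmh24) was 0.46 and did not pass (adjusted p = 0.0813). With edgeR the change in the double mutant was 0.41 and did not pass (adjusted p = 0.0522), nor did it in a fit of the compared genotypes alone (adjusted p = 0.0564).

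acaa-2 (WBGene00009952; chromosome III, 13344937 to 13346860, plus strand) encodes a 3-ketoacyl-CoA thiolase, which cleaves off acetyl-CoA. Its normalized counts were 4855, 4878 and 4809 in the double mutant, 5891, 4489 and 5231 in lonp-1(cmh24), 8601, 8406 and 7773 in mrps-38(P210L), and 6453, 6275 and 6416 in wildtype. The genotypes with cmh24 lay below wildtype and mrps-38(P210L) above it, with no overlap with wildtype. acaa-2 fell by 0.40 ± 0.08 in the double mutant (adjusted p = 0.000508) and by 0.30 ± 0.08 in lonp-1(cmh24) (adjusted p = 0.0042), and rose by 0.37 ± 0.08 in mrps-38(P210L) (adjusted p = 0.000983). On FPKM only the first of these 3 passed, at -0.38, while lonp-1(cmh24) was at -0.07 (adjusted p = 0.416) and mrps-38(P210L) at 0.12 (adjusted p = 0.194). Without lonp-1(cmh24) replicate 2 the fall in lonp-1(cmh24) was -0.20 (adjusted p = 0.0141).

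The 3 peroxisomal genes encode successive enzymes. MAOC-1 hydrates the enoyl-CoA, DHS-28 oxidizes the hydroxyacyl-CoA, and DAF-22 is the thiolase that ends the round; in worms all 3 are needed for short-chain ascarosides. maoc-1 (WBGene00017123; chromosome II, 7196276 to 7197495, plus strand) had 1238, 1241 and 1287 normalized counts in the double mutant, 1422, 1276 and 1284 in lonp-1(cmh24), 1995, 1889 and 1985 in mrps-38(P210L), and 1367, 977 and 1275 in wildtype. dhs-28 (WBGene00000991; chromosome X, 6818438 to 6820080, plus strand) had 4236, 4539 and 4182 in the double mutant, 5766, 4227 and 4818 in lonp-1(cmh24), 9518, 9410 and 8886 in mrps-38(P210L), and 6320, 4782 and 5995 in wildtype. daf-22 (WBGene00013284; chromosome II, 12423518 to 12425694, minus strand) had 2257, 2198 and 2082 in the double mutant, 3121, 2198 and 2376 in lonp-1(cmh24), 5591, 5516 and 4810 in mrps-38(P210L), and 2851, 2548 and 2749 in wildtype. For all 3 genes the mrps-38(P210L) libraries stood above every other library, as they also did in normalized counts of cpt-1, acaa-2 and nhr-49. For the 3 peroxisomal genes lonp-1(cmh24) overlapped wildtype. maoc-1 and dhs-28 overlap antisense genes at their ends by 105 and 76 bases; the other 7 members overlap no annotated gene.

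All 3 peroxisomal genes rose in mrps-38(P210L) against wildtype, and this held on both scales. daf-22 rose 1.95-fold (0.96 ± 0.11, adjusted p = 9.32e-06; 0.71 on FPKM), dhs-28 1.64-fold (0.71 ± 0.11, adjusted p = 0.000152; 0.46 on FPKM) and maoc-1 1.64-fold (0.71 ± 0.10, adjusted p = 3.38e-05; 0.46 on FPKM). In the same comparison 5 of 8 intestinal markers rose and 0 fell, with a median of 0.51, though 1 of 8 passed on FPKM, where the median was 0.25. Markers of other somatic tissues moved with them: 6 of 6 hypodermal (median 0.37), 5 of 6 neuronal (0.41) and 4 of 6 body wall muscle markers (0.25) rose and 0 fell, while on FPKM 2, 2 and 0 rose and 0, 1 and 2 fell. All 6 yolk and all 28 sperm genes fell. Their part in the rise of the peroxisomal genes was not tested.

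In lonp-1(cmh24) none of the 3 passed against wildtype in the limma test. Their changes were 0.15 ± 0.10 for maoc-1 (adjusted p = 0.198), -0.21 ± 0.11 for dhs-28 (adjusted p = 0.131) and -0.10 ± 0.11 for daf-22 (adjusted p = 0.46), and on FPKM these became 0.38, which passed (adjusted p = 0.00358), 0.02 and 0.13. The calls in this comparison also turned on single libraries: daf-22 passed at -0.25 without lonp-1(cmh24) replicate 1 (adjusted p = 0.009), dhs-28 passed at -0.33 without that library or without wildtype replicate 2, and maoc-1 passed at 0.25 without wildtype replicate 1.

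In the double mutant daf-22 fell by 0.32 ± 0.11 (adjusted p = 0.02) and dhs-28 by 0.39 ± 0.11 (adjusted p = 0.00824), against wildtype. The change of maoc-1 was 0.07 ± 0.10 (adjusted p = 0.516), which turned to -0.04 under TMM factors. The daf-22 call did not pass without wildtype replicate 1 (adjusted p = 0.069), wildtype replicate 3 (adjusted p = 0.0523) or double mutant replicate 3 (adjusted p = 0.0648). Against mrps-38(P210L) all 3 fell in the double mutant, daf-22 being 2.43-fold lower, dhs-28 2.15-fold lower and maoc-1 1.56-fold lower.

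Over the 9 genes, 4 rose and 4 fell in the double mutant against wildtype, 4 rose and 2 fell in lonp-1(cmh24), and 8 rose and 0 fell in mrps-38(P210L). Of all tested genes, 74.5% were called in the first of these comparisons (40.9% up and 33.6% down), 62.7% in the second (30.6% up and 32.1% down) and 66.3% in the third (31.5% up and 34.7% down). The total of members called in lonp-1(cmh24) was close to this background. The median member changed by 0.07, 0.15 and 0.71 in these 3 comparisons, beside 0.09, -0.06 and -0.01 for all tested genes. On FPKM the members that rose and fell numbered 4 and 4 in the double mutant, 5 and 1 in lonp-1(cmh24), and 6 and 1 in mrps-38(P210L). The split of all calls moved as well: the share that were rises was 48.8% under size factors and 67.1% on FPKM in lonp-1(cmh24), and 47.6% and 25.4% in mrps-38(P210L). In the double mutant it was 54.9% under size factors, 56.6% on FPKM and 47.9% under TMM factors, where 5592 genes rose and 6083 fell; edgeR had 5875 up and 6147 down.

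**Figure D2:**
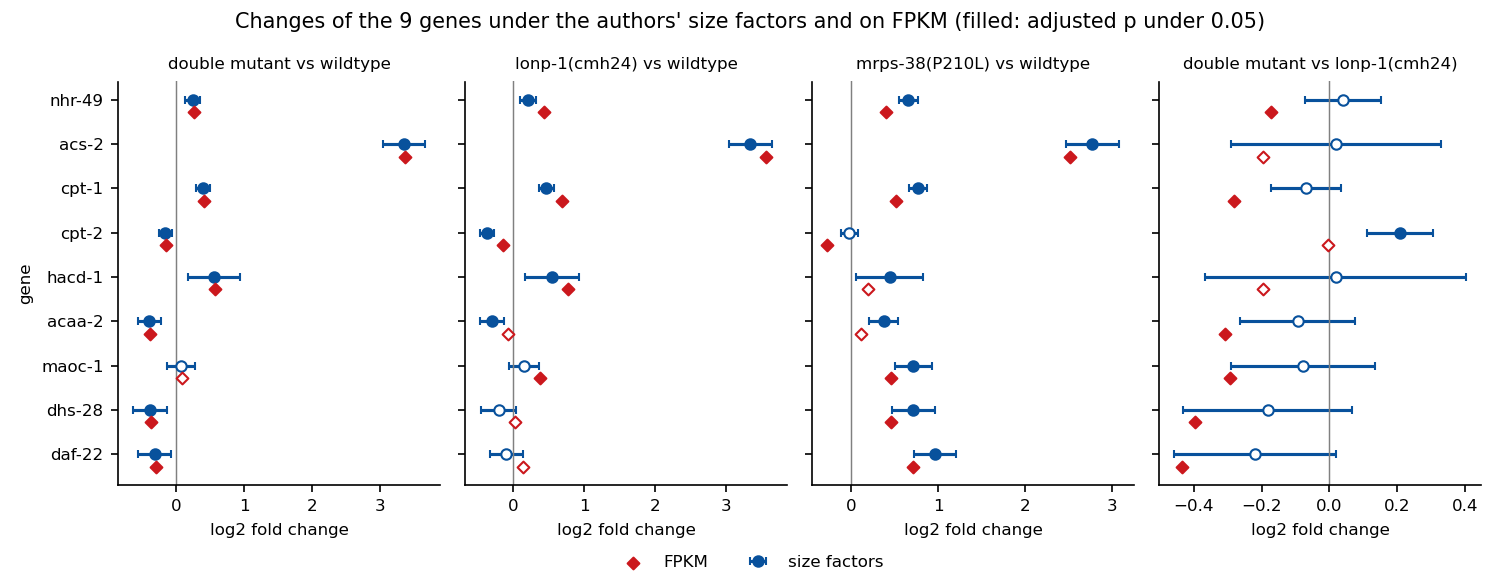
Log2 fold changes (horizontal axes) of the 9 genes in 4 comparisons, under the authors' size factors (circles, with 95% confidence intervals) and on FPKM (diamonds); filled symbols have an adjusted p under 0.05 in limma. acs-2 lies at 3.36, 3.34 and 2.77 against wildtype, and between the double mutant and lonp-1(cmh24) cpt-2 alone passed under size factors, at 0.21.

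Neither the mitochondrial nor the peroxisomal genes moved as a block in every genotype, and their changes overlapped; the difference between these groups was not tested. In the double mutant 3 of 5 mitochondrial genes rose and 2 fell, with a median of 0.40, while 0 of 3 peroxisomal genes rose and 2 fell, with a median of -0.32. In lonp-1(cmh24) the mitochondrial genes again counted 3 up and 2 down with a median of 0.46, and 0 of 3 peroxisomal genes were called, with a median of -0.10 that became 0.13 on FPKM. In mrps-38(P210L) 4 of 5 mitochondrial genes were up at a median of 0.44 (on FPKM 2 up and 1 down, with a median of 0.19) and 3 of 3 peroxisomal genes were up at a median of 0.71 (0.46 on FPKM). The mitochondrial median does not stand for a joint movement, since acs-2, cpt-1 and hacd-1 rose while cpt-2 and acaa-2 fell in both genotypes with cmh24.

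Ratios taken within each library are free of library scaling. The pairs of a mitochondrial and a peroxisomal gene given here did not all share an order of genotypes, and other such pairs were not examined. The ratio of acs-2 to daf-22 (FPKM) was 1.62, 1.66 and 1.72 in the double mutant, 1.49, 1.34 and 1.42 in lonp-1(cmh24), 0.443, 0.464 and 0.457 in mrps-38(P210L), and 0.136, 0.124 and 0.130 in wildtype. The 4 genotypes did not overlap. The lonp-1(cmh24) libraries lay closer together in this ratio than in acs-2 counts, since their members moved together: lonp-1(cmh24) replicate 1 was the highest of its group for 9 of 9 members, and replicate 2 the lowest for 8 of 9.

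For the dehydrogenase step the ratio of hacd-1 to dhs-28 was 0.798 ± 0.0645 in the double mutant, 0.693 ± 0.0272 in lonp-1(cmh24), 0.341 ± 0.0262 in mrps-38(P210L) and 0.414 ± 0.0600 in wildtype (SD, n = 3 each). Both genotypes with cmh24 lay above the others, while mrps-38(P210L) overlapped wildtype. For the thiolase step the ratio of acaa-2 to daf-22 was 2.15 ± 0.0773, 1.98 ± 0.152, 1.51 ± 0.0479 and 2.28 ± 0.0974 in the same order. There mrps-38(P210L) stood below the other genotypes, the lonp-1(cmh24) libraries (1.83 to 2.13) lay below the wildtype libraries (2.19 to 2.38), and the double mutant (2.08 to 2.23) overlapped wildtype, so the 2 later steps did not share a pattern.

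Set against its regulator, acs-2 transcript also varied widely. The ratio of acs-2 to nhr-49 was 2.94 ± 0.0585 in the double mutant, 3.02 ± 0.600 in lonp-1(cmh24), 1.47 ± 0.138 in mrps-38(P210L) and 0.338 ± 0.0238 in wildtype (ratio of FPKM; SD, n = 3 each). Wildtype worms thus had less acs-2 than nhr-49 transcript per length, and all mutant libraries had more.

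**Figure D3:**
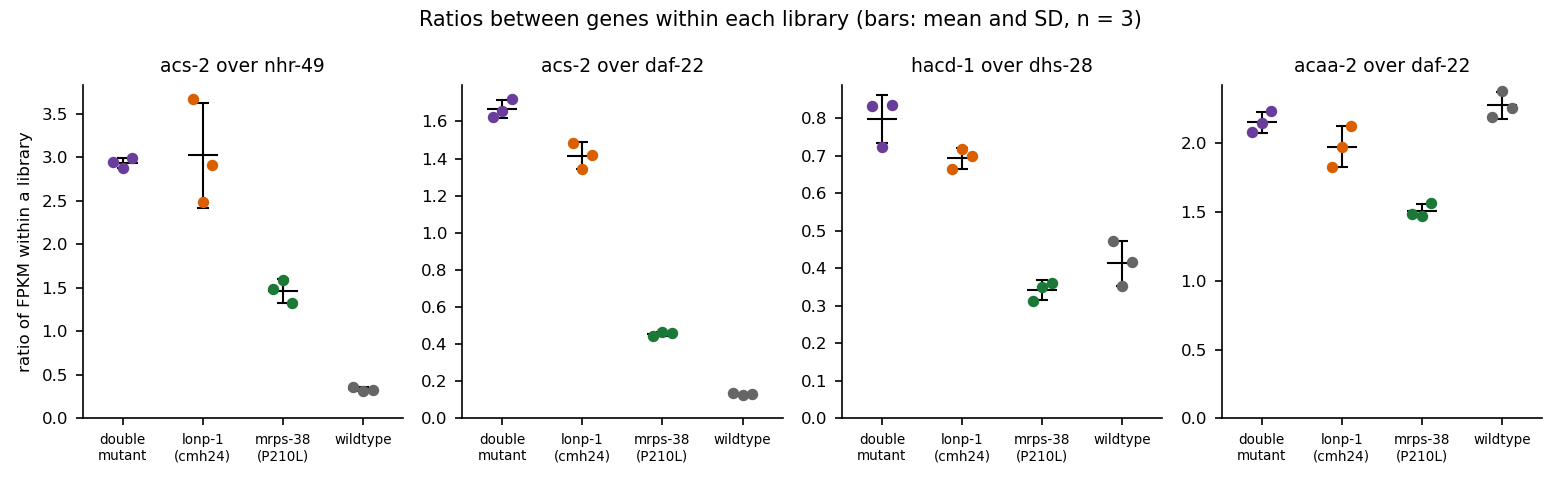
Ratio of the FPKM of pairs of genes within each library (vertical axes, from 0) in the double mutant, lonp-1(cmh24), mrps-38(P210L) and wildtype; points are libraries, and bars are the mean and SD of 3. The ratio of acs-2 to daf-22 falls in 4 separate ranges, whereas the ratio of acaa-2 to daf-22 is low in mrps-38(P210L), at 1.51 ± 0.0479.

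The design asks next whether the mutations act on these genes independently. Set against lonp-1(cmh24), the double mutant had 1 member up and 0 down, beside 54.3% of all tested genes called (29.8% up and 24.5% down), and the member median was -0.07. This comparison depended on scaling: on FPKM 0 members rose and 6 fell (nhr-49, cpt-1, acaa-2 and all 3 peroxisomal genes), and the share of all calls that were rises was 54.9% under size factors and 31.2% on FPKM. The largest FPKM differences were those of daf-22 at -0.43 (adjusted p = 0.00414), dhs-28 at -0.40 (adjusted p = 0.00712) and acaa-2 at -0.31 (adjusted p = 0.00436), against -0.22, -0.18 and -0.09 under size factors, none of which passed. cpt-1 was at -0.28 on FPKM (adjusted p = 0.000634), maoc-1 at -0.29 (adjusted p = 0.0169) and nhr-49, at 0.04 under size factors, turned to -0.17 (adjusted p = 0.00768). hacd-1 was at 0.02 under size factors and at -0.19 on FPKM (adjusted p = 0.303). Under TMM factors 0 members rose and 4 fell (cpt-1, acaa-2, daf-22 and dhs-28), and rises were 36.4% of all calls. Without lonp-1(cmh24) replicate 2, the library of that genotype lowest for most members, daf-22, dhs-28 and acaa-2 passed under size factors too, at -0.32 for daf-22 (adjusted p = 0.0237), -0.29 for dhs-28 (adjusted p = 0.0462) and -0.20 for acaa-2 (adjusted p = 0.0206).

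Against mrps-38(P210L), 1 member rose and 7 fell in the double mutant, with 83.6% of all tested genes called (43.6% up and 40% down). In lonp-1(cmh24) against mrps-38(P210L) the counts were also 1 up and 7 down, with 81.5% of all tested genes called (42.6% up and 38.8% down), and these comparisons share the mrps-38(P210L) libraries. On FPKM the counts became 3 up and 5 down in the double mutant, and 4 up and 3 down in lonp-1(cmh24). The direction turned for cpt-2 in both, from -0.13 to 0.14 in the double mutant and from -0.34 to 0.14 in lonp-1(cmh24), and for cpt-1 in lonp-1(cmh24), from -0.30 to 0.18. Other calls also parted by scale. cpt-1 in the double mutant was at -0.37 under size factors and at -0.10 on FPKM, where it did not pass (adjusted p = 0.0884), and maoc-1 in lonp-1(cmh24) was at -0.56 and, on FPKM, at -0.08 (adjusted p = 0.46). hacd-1, at 0.12 and 0.10 in these genotypes with neither called, was called on FPKM at 0.39 in the double mutant (adjusted p = 0.0377) and at 0.59 in lonp-1(cmh24) (adjusted p = 0.00513). The share of all calls that were rises was 52.2% under size factors and 62.8% on FPKM in the double mutant, and 52.3% and 75.3% in lonp-1(cmh24).

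The interaction is the change of the double mutant less the sum of the changes of both single mutants, all against wildtype on the log2 scale. It was below 0 for 7 of the 9 genes and above 0 for cpt-2, with hacd-1 not called, beside 66.0% of all tested genes called (34.4% above and 31.6% below 0). The member counts were the same on FPKM, where the median gene shifted by 0.04, whereas under TMM factors, with a shift of -0.13, 7 were below 0 and 0 above, and 44.2% of all calls were above 0, against 52.2% under size factors. The interaction of acs-2 was -2.75 ± 0.20 (adjusted p = 4.54e-07). It was thus nearly as large as its whole rise in mrps-38(P210L), as the near-equal levels of acs-2 in the double mutant and lonp-1(cmh24) require.

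For the peroxisomal genes the interaction was -1.18 ± 0.15 for daf-22, -0.89 ± 0.16 for dhs-28 and -0.79 ± 0.14 for maoc-1. Each was close in size to the rise of that gene in mrps-38(P210L): the excess is the difference of the double mutant from lonp-1(cmh24), which did not pass for daf-22 (adjusted p = 0.11), dhs-28 (adjusted p = 0.196) or maoc-1 (adjusted p = 0.517). cpt-1 had an interaction of -0.83 ± 0.07, nhr-49 of -0.61 ± 0.07, and acaa-2 of -0.46 ± 0.11. That of cpt-2 was 0.23 ± 0.06 (adjusted p = 0.0054), and was 0.11 under TMM factors, where it did not pass (adjusted p = 0.16). For hacd-1 the value was -0.42 ± 0.24 (adjusted p = 0.151), which passed at -0.60 without wildtype replicate 1 (adjusted p = 0.0213).

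On the per-length FPKM scale the abundant members were acaa-2 and dhs-28. acaa-2 had 160 FPKM in the double mutant, 199 in lonp-1(cmh24), 226 in mrps-38(P210L) and 209 in wildtype. dhs-28 had 140, 185, 248 and 182 FPKM in the same order, and daf-22 74.4, 101, 150 and 91.7. Among the carnitine transferases cpt-2 had the higher level in wildtype, at 57.9 against 32.3 FPKM for cpt-1, while in mrps-38(P210L) they were at 47.6 and 45.9. In the order of normalized counts, the double mutant and lonp-1(cmh24) were neighbours for all 9 genes, and their difference passed for cpt-2 alone. How often these genotypes are neighbours over all tested genes was not counted. In the order of FPKM they were not neighbours for 4 of the 9: mrps-38(P210L) lay between them for cpt-1 and nhr-49, and wildtype for daf-22 and dhs-28. For daf-22, dhs-28 and maoc-1 no difference under size factors passed between neighbours below mrps-38(P210L).

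Other genes, 82 with the 9 members left out, were listed by enzyme class of the pathway, carnitine shuttle, and peroxisomal transport and biogenesis (17 genes). Of the 82, 77 were tested. In the double mutant against wildtype 20 of these rose and 36 fell, with a median of -0.23. In lonp-1(cmh24) 15 rose and 38 fell, with a median of -0.25, and on FPKM 22 rose and 25 fell, with a median of -0.02. In mrps-38(P210L) 32 rose and 26 fell, with a median of 0.12, and on FPKM 12 rose and 34 fell, with a median of -0.14. As shares under size factors, 26.0% rose and 46.8% fell in the double mutant, 19.5% and 49.4% in lonp-1(cmh24), and 41.6% and 33.8% in mrps-38(P210L). Of all tested genes 40.9% rose and 33.6% fell, 30.6% and 32.1%, and 31.5% and 34.7%, in the same order. The shares of all tested genes are also the background of the lists that follow. acs-8, had-1, had-2 and hadb-1 were not analysed here.

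Several other mitochondrial enzymes fell in lonp-1(cmh24) against wildtype. Of 8 enoyl-CoA hydratases, which add water to the chain, 6 fell and 0 rose (median -0.31), though on FPKM 3 fell and 1 rose. ech-6, a short-chain hydratase of the mitochondria, fell by 0.92 ± 0.05, and ech-1.1, which is like the alpha subunit of the human trifunctional protein, fell by 2.28 ± 0.20. Of 13 acyl-CoA dehydrogenases, which make the first oxidation, 7 fell and 1 rose (median -0.23), with acdh-2 down by 2.69 ± 0.20. On FPKM 5 of these dehydrogenases fell and 2 rose, with a median of -0.0036. kat-1, a mitochondrial thiolase, fell by 0.82 ± 0.04 in lonp-1(cmh24) and by 0.36 ± 0.04 in the double mutant. Among the remaining carnitine shuttle genes dif-1, a carnitine/acylcarnitine carrier, fell by 0.58 ± 0.05 in the double mutant and by 0.63 ± 0.05 in lonp-1(cmh24). The sum of 6 body wall muscle markers was also lower in lonp-1(cmh24), at 99737 to 104953 normalized counts, against 204078 to 238570 in wildtype; its part in these falls was not tested.

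Some of these genes were less reduced in the double mutant. Compared with lonp-1(cmh24), acdh-2 was higher there by 2.21 ± 0.20, ech-1.1 by 1.95 ± 0.20, the carnitine transferase homolog cpt-5 by 1.17 ± 0.07 and kat-1 by 0.46 ± 0.04. All 4 had fallen in lonp-1(cmh24) against wildtype, and the comparisons share the lonp-1(cmh24) libraries. The same difference was 0.02 ± 0.14 for acs-2 and -0.07 ± 0.05 for cpt-1.

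**Figure D4:**
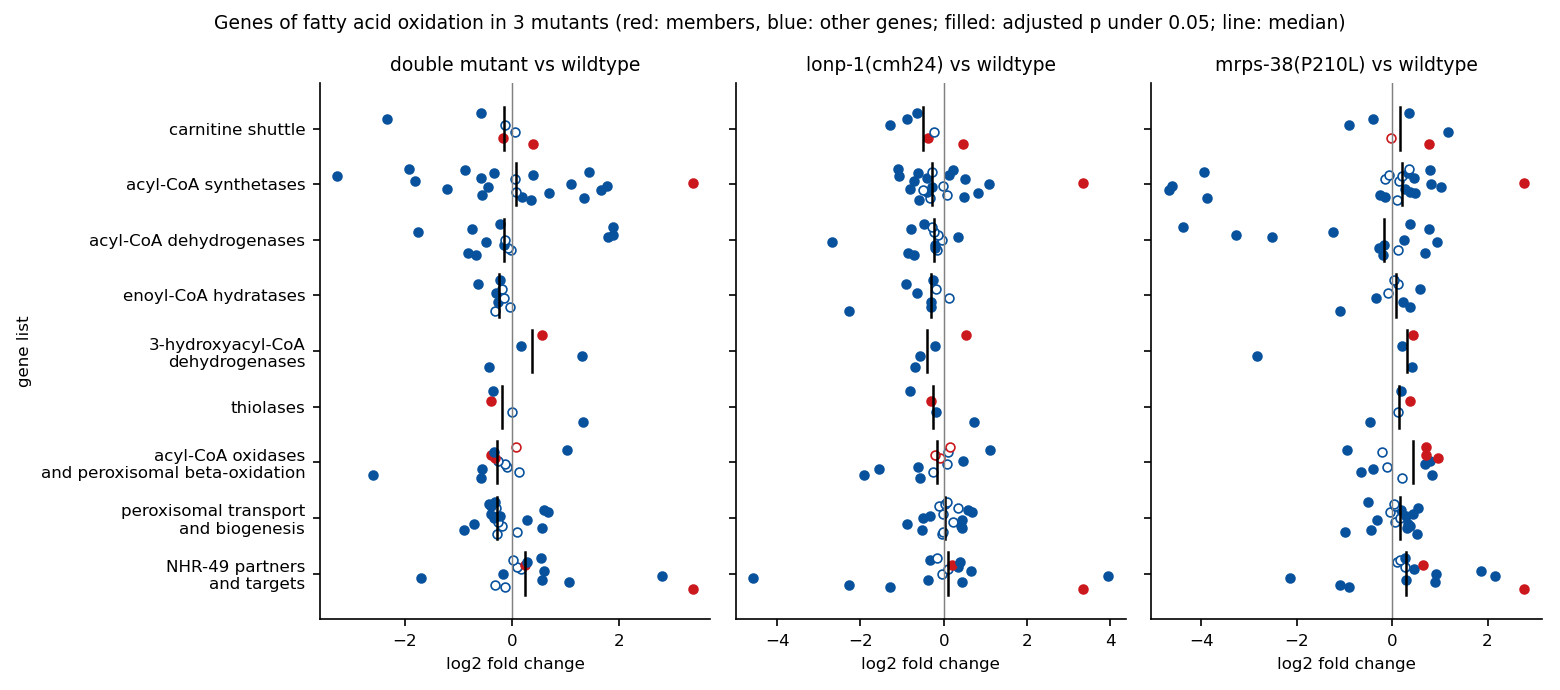
Log2 fold changes against wildtype (horizontal axes) of the tested genes of 9 lists (rows) in the double mutant, lonp-1(cmh24) and mrps-38(P210L). The lists cover fatty acid oxidation, peroxisomal transport and biogenesis, and NHR-49 partners and targets. Red circles are the 9 genes of this account, blue circles other genes, filled where the adjusted p was under 0.05 in limma. Bars are medians of each list. acs-2 lies at 3.36, 3.34 and 2.77, far right of the median of the acyl-CoA synthetases, which was 0.07, -0.29 and 0.21.

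Among the acyl-CoA synthetases other than acs-2, 9 of 20 rose and 9 fell in the double mutant, 6 rose and 9 fell in lonp-1(cmh24), and 8 rose and 6 fell in mrps-38(P210L). On FPKM the balance turned round in both single mutants, with 7 up and 6 down in lonp-1(cmh24) and 4 up and 9 down in mrps-38(P210L). acs-19 was among those most changed in lonp-1(cmh24), where it rose by 1.08 ± 0.09. acs-15 and acs-18 fell in mrps-38(P210L) by 4.67 ± 0.45 and 4.62 ± 0.48, in the genotype where sperm genes were at their lowest, with 28 markers summing to 625 to 4310 normalized counts against 24809 to 26371 in wildtype. Among the acyl-CoA dehydrogenases, acdh-8, acdh-5 and acdh-4 fell in mrps-38(P210L) by 4.38 ± 0.51, 3.28 ± 0.22 and 2.51 ± 0.12, and rose in the double mutant by 1.89 ± 0.51, 1.87 ± 0.22 and 1.79 ± 0.12, where the sperm markers summed to 159054 to 167558. The part of sperm in these changes was not tested.

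The acyl-CoA oxidases make the first oxidation in peroxisomes, ahead of MAOC-1, DHS-28 and DAF-22. acox-1.2 had a mean of 914 ± 20 normalized counts in the double mutant, 1455 ± 17 in lonp-1(cmh24), 9819 ± 872 in mrps-38(P210L) and 5496 ± 173 in wildtype (SD, n = 3 each). It fell by 2.59 ± 0.06 in the double mutant and by 1.92 ± 0.06 in lonp-1(cmh24), and rose by 0.83 ± 0.06 in mrps-38(P210L). acox-1.4 fell by 1.56 ± 0.10 in lonp-1(cmh24), and acox-3 rose by 0.79 ± 0.14 in mrps-38(P210L). ech-9, a hydratase-like gene of the peroxisomal list, went the other way, up by 1.03 ± 0.31 in the double mutant and by 1.12 ± 0.31 in lonp-1(cmh24) and down by 0.94 ± 0.31 in mrps-38(P210L). Of the 9 non-members on this list, 1 rose and 4 fell in the double mutant, 2 rose and 4 fell in lonp-1(cmh24), and 3 rose and 3 fell in mrps-38(P210L); on FPKM the single mutants counted 3 up and 3 down, and 3 up and 4 down.

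Listed partners and targets of NHR-49 moved in both directions, as did the tested genes at large. Of 13 tested besides acs-2 and nhr-49, 6 rose and 2 fell in the double mutant, 5 rose and 5 fell in lonp-1(cmh24), and 7 rose and 3 fell in mrps-38(P210L). These were 46.2% up and 15.4% down, 38.5% and 38.5%, and 53.8% and 23.1%. Of all tested genes 40.9% rose and 33.6% fell, 30.6% and 32.1%, and 31.5% and 34.7%, in the same order. On FPKM 7 rose and 3 fell in lonp-1(cmh24), and 4 rose and 3 fell in mrps-38(P210L). fmo-2, a flavin monooxygenase induced through NHR-49 in stress, rose by 2.79 ± 0.21, 3.95 ± 0.21 and 2.15 ± 0.21 in these genotypes. fat-7, a stearoyl-CoA desaturase, fell in all 3, by 1.70 ± 0.18, 4.57 ± 0.18 and 2.13 ± 0.18, and was higher in the double mutant than in lonp-1(cmh24) by 2.88 ± 0.18. icl-1, the bifunctional enzyme of the glyoxylate cycle, rose by 1.86 ± 0.10 in mrps-38(P210L), where nhr-49 was also highest under size factors. On FPKM nhr-49 was at 47.6 in lonp-1(cmh24) and 46.6 in mrps-38(P210L). icl-1 averaged 9430 normalized counts in the double mutant, 9817 in lonp-1(cmh24), 22567 in mrps-38(P210L) and 6227 in wildtype. fmo-2 and fat-7 thus moved in opposite directions in the same worms.

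The transcripts whose profile over the 12 libraries was most like that of acs-2 were aldo-1, a fructose-bisphosphate aldolase (Pearson r = 0.994), tspo-1, F23F12.12 and acs-19 (0.989 each) and F48D6.4 (0.987), among 12912 genes compared. aldo-1 averaged 18611 normalized counts in the double mutant, 17561 in lonp-1(cmh24), 16455 in mrps-38(P210L) and 8975 in wildtype. For nhr-49 they were pyc-1, pyruvate carboxylase (0.985), asah-1 (0.982), pck-2, a phosphoenolpyruvate carboxykinase (0.981), C18B2.4 (0.98) and icl-1 (0.979). pyc-1 averaged 6213, 5914, 10081 and 5113 normalized counts in the same order of genotypes. These correlations describe 12 libraries that fall into 4 genotypes, and carry no test.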

How the data were processed

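The files hold 12 libraries, 3 per genotype, of whole L4 worms. Per the submitters' processing notes, STAR, featureCounts, DESeq2 and WBcel235 were used (versions: not given in the sources used here). Both tables, as the authors deposited them, cover 19568 genes, with normalized counts (a signal, read counts divided by a size factor per library) and FPKM; all sample columns were used (0 left out). Every value of the normalized counts is a whole multiple of a step per library (100% within 0.01), so reads were recovered; the step of wildtype replicate 1 is close to 1. They sum to 22614493 to 22890539 reads per library, with size factors of 0.8479 to 1.215. For each gene, the reads divided by the authors' FPKM and by the library total were compared between libraries. This quotient deviated from its median over libraries by at most 7e-15 (relative). FPKM values were not recomputed from gene lengths. Members had 519 to 8598 reads per library.

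limma 3.58.1 (R 4.3.3, statmod 1.5.0), with intensity trend and robust empirical Bayes, was fitted once to all libraries on log2 of normalized count + 1, for genes with a mean of at least 10 (15717), two-sided, with Benjamini-Hochberg adjustment. The fit was also run on simulated counts in which few genes changed. Since most tested genes are called here, that run does not bear on these calls or on the scaling. The alternatives were a pseudocount of 0.5 or 5, no filter or a mean of at least 50, TMM factors, FPKM on the log2 scale (pseudocount 0.1, genes averaging 0.5 or more), a replicate block, count tests of the recovered reads by edgeR 4.0.16 (quasi-likelihood) and DESeq2 1.42.0, a fit of the compared groups alone and each library left out in turn. edgeR also scaled those reads by TMM, so it is no separate check of the scaling. It called 12022 genes in the double mutant, 10474 in lonp-1(cmh24) and 10262 in mrps-38(P210L) against wildtype.

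The members and gene lists were chosen with earlier results of these data known. Named are the members, per list and comparison up to 3 called genes with the largest change and a mean of at least 50, and the 5 genes most like acs-2 and nhr-49. Positions are those of the deposited tables and match Ensembl release 115. Deviations of same-numbered libraries correlated weakly (18 pairs, correlations of -0.159 to 0.122), so the main fit did not pair them. With 3 libraries per genotype, this cannot exclude a batch shared by number.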

Additional observations from a re-analysis of the deposited data

Results flagged for a closer look

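For 8 of the 9 genes the effect of 1 mutation differed between the genotypes with and without the other, by limma's test of the interaction. These were acs-2 (-2.75), daf-22 (-1.18), dhs-28 (-0.89), cpt-1 (-0.83), maoc-1 (-0.79), nhr-49 (-0.61), acaa-2 (-0.46) and cpt-2 (0.23), all on the log2 scale. Of all tested genes 66.0% also passed this test, so passing it does not set these genes apart. Groups of 3 libraries were too small to test for a library that stands apart.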

How the results depend on the processing

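Of 306 counts of called genes under the alternatives, 302 stayed within 1.5 times the reported count, whatever the direction of the calls. In lonp-1(cmh24) against mrps-38(P210L) the members, counted as unmoved, went from 1 up and 7 down to 4 up and 3 down on FPKM. Of 1377 values of single members, most of them from fits leaving out 1 library, 1295 kept their direction and call. On FPKM 39 of 63 did (10 turned, 9 gained and 5 lost a call), under TMM factors 52 and with edgeR 51. The 4 counts that moved concern the members called between the double mutant and lonp-1(cmh24), reported as 1. They were 4 under TMM factors, 4 with edgeR, which also scales by TMM, and 6 on FPKM, all lower in the double mutant. With each library left out they were between 1 and 4, the 4 being without lonp-1(cmh24) replicate 2. DESeq2, which scales by size factors, gave 1, higher in the double mutant.

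In that comparison acs-2 turned to -0.13 under TMM factors, -0.16 with edgeR, -0.20 on FPKM and -0.0184 with DESeq2, and ranged from -0.12 to 0.20 with each library left out. hacd-1 turned to -0.13, -0.14 and -0.19 under TMM factors, edgeR and FPKM, with a range of -0.0622 to 0.11, and nhr-49 to -0.11, -0.11 and -0.17. cpt-2 turned to -0.00536 on FPKM, and acaa-2 ranged from -0.20 to 0.000433. None of these turned values passed, except nhr-49 on FPKM (adjusted p = 0.00768).

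In lonp-1(cmh24) against wildtype, daf-22 turned to 0.13 and dhs-28 to 0.0206 on FPKM, and daf-22 ranged from -0.25 to 0.00553 with each library left out. In the double mutant against wildtype, maoc-1 turned to -0.0410 under TMM factors and -0.0571 with edgeR, and ranged from -0.0728 to 0.17. On FPKM, cpt-2 turned to 0.14 in the double mutant against mrps-38(P210L), and cpt-1 to 0.18, cpt-2 to 0.14 and nhr-49 to 0.0320 in lonp-1(cmh24) against mrps-38(P210L). The cause of these turns was not tested, beyond the shift of the median gene between scalings.

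Replicate numbers did not pair the libraries (1 of 18 same-numbered pairs correlated over 0.1). With a replicate block, 8 members were called in the double mutant, 6 in lonp-1(cmh24) and 8 in mrps-38(P210L) against wildtype, and 11612, 9758 and 10320 genes in all; the block changed no call of a member. The members had at least 519 reads in each library.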
